A study of Mus musculus with 10 samples.

Results

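The genes described are the 10 that carry the endothelin, Dlx and Hand axis of jaw patterning: *Edn1*, *Ednra*, *Dlx1*, *Dlx2*, *Dlx3*, *Dlx4*, *Dlx5*, *Dlx6*, *Hand1* and *Hand2*. They were chosen by name from the 22114 protein-coding genes with counts; the rule used no measured value. RNA was sequenced from the dissected first pharyngeal arch (PA1), which forms the maxillary and mandibular processes, of 10 male mouse embryos at E10.5 on a C57BL/6 background, as labelled (the null line was back-crossed to C57BL/6J). The groups were 5 wild-type embryos and 5 *Grhl2-/-* embryos that carry a gene-targeted null allele of *Grhl2*, an epithelial transcription factor, in every cell from the zygote onwards. The null line was kept by crossing heterozygotes, and the labels give no other treatment or allele; the numbers in the names KO1-628 and KO3-604 occur in no wild-type arch, whereas every wild-type number also occurs in a *Grhl2-/-* arch. Each arch was 1 library of whole arch RNA, in which maxillary and mandibular, epithelial and mesenchymal transcripts are mixed, so fewer cells of a type and less RNA per cell cannot be told apart in any value given here.

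Along the dorsoventral axis of the arch, the signalling peptide endothelin 1 is made by the ventral epithelium, by mesoderm and by endothelium, and binds the endothelin A receptor on neural crest cells. Signalling through this receptor sustains *Dlx5* and *Dlx6* and, downstream of them, *Hand2*, and so sets lower jaw identity. *Dlx1* and *Dlx2* are expressed along the whole axis, *Dlx5* and *Dlx6* ventrally, *Dlx3* and *Dlx4* more ventrally still, and the Hand genes at the ventral end. The question put to the data was whether the transcripts of this axis differ between wild-type and *Grhl2-/-* PA1.

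The 6 Dlx genes lie in 3 pairs that are transcribed towards each other, with gaps of 9426 bp between *Dlx1* and *Dlx2*, 15150 bp between *Dlx3* and *Dlx4*, and 9236 bp between *Dlx5* and *Dlx6*, and they share the homeobox. The stretch of 180 coding bases in which they are most alike is shown for *Dlx5* and *Dlx6*, because the counts of this pair are set against each other and rest on 50-base reads telling the copies apart. Both were read from GRCm38 with GENCODE release M21 and span 2 exons, within chr6:6878447-6879663 (minus strand) for *Dlx5* and chr6:6865134-6867082 (plus strand) for *Dlx6*. Capitals in *Dlx6* mark the 47 bases that differ from *Dlx5*.

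Dlx5: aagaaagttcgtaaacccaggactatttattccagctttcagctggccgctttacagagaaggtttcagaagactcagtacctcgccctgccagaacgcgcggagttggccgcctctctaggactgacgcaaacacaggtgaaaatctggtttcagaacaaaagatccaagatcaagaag

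Dlx6: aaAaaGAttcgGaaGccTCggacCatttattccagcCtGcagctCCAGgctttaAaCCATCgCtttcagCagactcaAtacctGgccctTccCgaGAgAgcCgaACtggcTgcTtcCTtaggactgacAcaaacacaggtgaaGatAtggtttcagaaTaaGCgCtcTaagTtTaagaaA

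Over this window *Dlx6* was 73.9% identical to *Dlx5*, *Dlx1* 76.1%, *Dlx2* 77.2%, *Dlx3* 72.8% and *Dlx4* 67.2%. The longest run of coding bases shared by any pair of Dlx genes was 23, and that shared by *Hand1* and *Hand2* was 17. No run of 50 bases in the transcripts of any of the 10 genes occurred in another of the 10. Outside the 10, 15.8% of the 50-base runs of *Hand2* also lay in *Hand2os1* on the opposite strand, 6.09% of those of *Dlx6* in other genes, 5.19% of those of *Dlx1* in *Dlx1as*, 0.963% of those of *Dlx4* in *Dlx4os* and 0.848% of those of *Ednra* in *4933431K23Rik*. The libraries were stranded. The name of the deposited count table includes the word reverse, which may stand for counting on the reverse strand, but the strand setting itself is not given in the sources used here.

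Between 22188454 and 28801378 reads per arch were counted on all protein-coding genes. *Grhl2*, the targeted gene, had 81 to 178 reads in the *Grhl2-/-* arches and 794 to 1163 in the wild-type arches, and fell from 35.6 ± 3.29 to 4.53 ± 1.45 CPM (reads scaled to library size and TMM factor; SD, n = 5 each; log2 fold change -3.02, limma-voom FDR 2.67e-06). As for the labelled tissue, 6 ectomesenchyme genes summed to between 1251 and 1553 CPM in wild-type and between 1083 and 1246 CPM in *Grhl2-/-* arches, and the Hox genes of the second and more posterior arches to at most 2.09 CPM in any arch. A pair of wild-type arches stood apart. WT1-566 and WT1-568 had 43.1 and 38.1 CPM in the sum of 10 sensory neuron genes, whereas the other wild-type arches had 474 to 755 CPM and the *Grhl2-/-* arches 255 to 944 CPM. The 10 genes, and those listed genes whose values are described against this pair, are given with and without it. Of 9 surface epithelium genes, 4 (*Cdh1*, *Epcam*, *Perp* and *Tfap2c*) were called lower by limma-voom in the *Grhl2-/-* group, while *Krt8* (FDR 0.203), *Krt18* (FDR 0.848) and *Krt19* (FDR 0.951) were not called. Transcripts of 7 heart genes summed to between 2.04 and 4.93 CPM in wild-type and between 5.81 and 15.3 CPM in *Grhl2-/-* arches. *Myh7* weighed most in this sum, with a mean that went from 1.29 to 5.82 CPM (log2 fold change 2.13). The estimates were 2.25 for *Nkx2-5*, 2.19 for *Tbx5* and 0.91 for *Gata4*, all scarce. They were only 0.14 for *Myh6*, 0.28 for *Tnnt2* and 0.23 for *Actn2*. FDR below 0.01 was reached by 0 of the 7 in limma-voom (2 had an unadjusted p below 0.05). It was reached by *Myh7* in edgeR, and by *Myh7* and *Nkx2-5* in DESeq2.

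To compare levels between genes, CPM were divided by the length of the annotated exons. In wild-type PA1, *Hand2* stood at 38.8 ± 5.66 CPM per kb (SD, n = 5), *Dlx2* at 23.0 ± 2.76, *Dlx3* at 16.3 ± 2.54, *Dlx1* at 15.4 ± 1.32, *Dlx6* at 13.6 ± 2.16 and *Dlx5* at 9.86 ± 1.90 CPM per kb. *Ednra* followed at 6.11 ± 0.967 and *Hand1* at 5.78 ± 1.47 CPM per kb. *Dlx4*, at 0.808 ± 0.206, and the ligand gene *Edn1*, at 0.804 ± 0.248 CPM per kb, were the least abundant. The receptor transcript was thus far above the ligand transcript, and the lowest wild-type arch for *Hand2* (32.4 CPM per kb) lay above the highest for *Dlx2* (25.9 CPM per kb). Neighbours in this order were separated in their wild-type ranges only between *Hand2* and *Dlx2*, between *Dlx5* and *Ednra*, and between *Hand1* and *Dlx4*. The other neighbours overlapped.

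**Figure D1:**
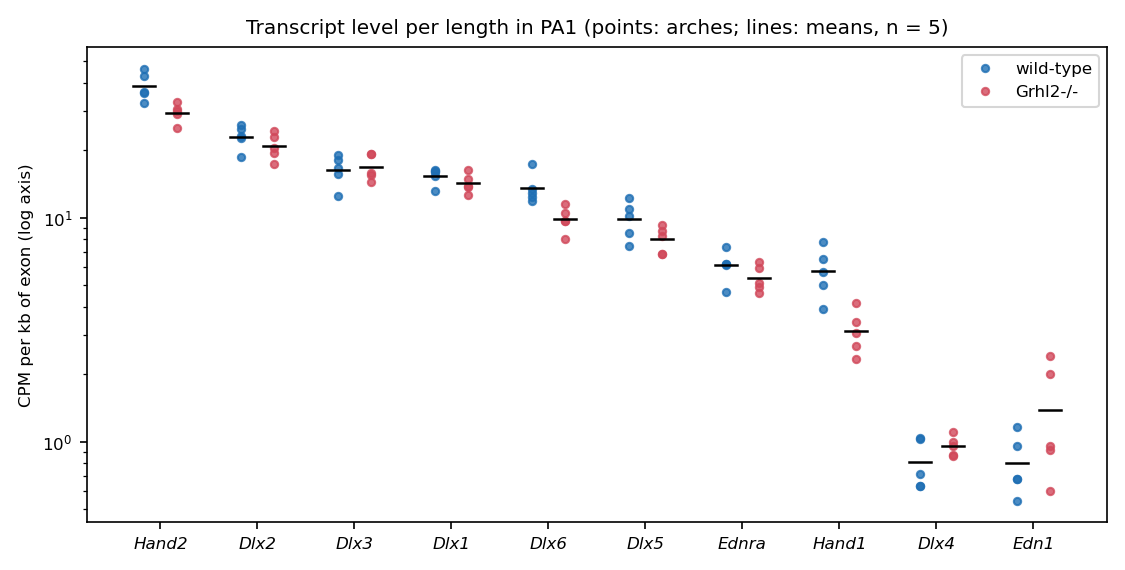
Transcript level of each gene in CPM per kb of exon on a log axis, ordered by the wild-type mean, with 1 point per arch (blue wild-type, red Grhl2-/-) and a line at each mean of 5. Hand2 was the most abundant at 38.8 CPM per kb, and Dlx4 and Edn1, near 0.8 CPM per kb, the least.

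All 10 genes had enough reads to be tested. At the FDR threshold of 0.01, 0 of the 10 were called by limma-voom, against 1.96% of the 14561 genes tested (286 genes), and 0 by edgeR's quasi-likelihood test, against 2.08%. Unadjusted p was below 0.05 in edgeR for 4 of them, *Dlx5*, *Dlx6*, *Hand1* and *Hand2*, against 28.9% of all genes. DESeq2 called 3, *Dlx6*, *Hand1* and *Hand2*, all lower in *Grhl2-/-* PA1, against 3.8% of all genes called lower. *Dlx6*, *Hand1* and *Hand2* also had an unadjusted limma-voom p below 0.05, against 28.5% of all genes, and passed a limma-voom FDR of 0.05, against 7.71% of all genes. With the number in the arch names as a block in limma-voom, 0 of the 10 passed 0.05, against 4.59% of all genes. The log2 fold change of *Grhl2-/-* over wild-type was below 0 in 7 of the 10, against 6888 of the 14561 genes tested. Its median was -0.15 over the 10, beside 0.01 over all genes tested. *Dlx6*, *Hand1* and *Hand2* each passed a limma-voom FDR of 0.05 in 4 of the 10 fits that left out 1 arch, and the highest FDR was 0.0794 for *Dlx6* (without KO2-568), 0.0672 for *Hand1* (without KO1-628) and 0.0878 for *Hand2* (without WT1-566). In *Dlx6* alone every *Grhl2-/-* arch lay below every wild-type arch, which held for 4.66% of all genes tested.

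**Figure D2:**
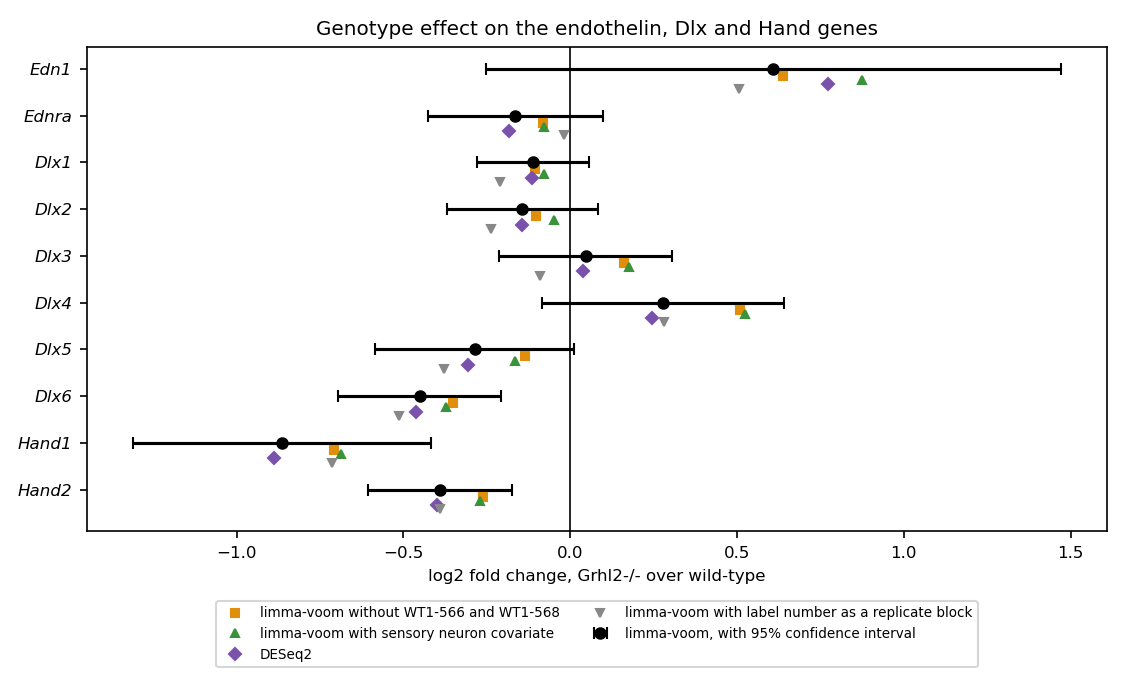
Log2 fold change of Grhl2-/- over wild-type PA1 for each gene, with the limma-voom estimate and its 95% confidence interval in black and the estimates of 4 other fits as coloured symbols. The intervals of Dlx6, Hand1 and Hand2 lie wholly below 0 and those of the other 7 genes include 0.

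*Edn1*, on chromosome 13 of GRCm38 from 42301476 to 42307990, encodes the ligand. In the order WT1-566, WT1-568, WT3-588, WT5-566 and WT8-568, used for all wild-type values below, it was at 1.45, 2.05, 2.47, 1.16 and 1.45 CPM. In the order KO1-588, KO1-628, KO2-566, KO2-568 and KO3-604, used for all *Grhl2-/-* values below, it was at 5.17, 2.05, 1.28, 1.96 and 4.29 CPM. KO1-588 and KO3-604 were above every other arch, while the remaining 3 *Grhl2-/-* arches fell within the wild-type range. Its estimated log2 fold change was 0.61 (95% confidence interval -0.25 to 1.47, limma-voom FDR 0.326), so the fit allowed a small fall as well as a rise of more than the measured one. Only 32 to 145 reads per arch were counted on it, few beside most of the other genes, and its coefficient of variation among *Grhl2-/-* arches, 57.0%, was the largest of the 10 genes. Without KO1-588 the log2 fold change was 0.34. Summed heart transcripts, in which *Myh7* weighed most, were highest in KO1-588, at 15.3 CPM, followed by KO3-604 at 9.81 CPM and KO2-568 at 9.71 CPM. The part of heart transcripts in the *Edn1* values was not tested. For endothelium, a source of endothelin 1, the sum over 7 genes was between 339 and 383 CPM in wild-type and between 376 and 439 CPM in *Grhl2-/-* arches. Limma-voom and edgeR called 0 of the 7 at FDR below 0.01 (4 had an unadjusted p below 0.05 in each), and DESeq2 called *Kdr* and *Pecam1*. Within genotypes *Edn1* correlated with the endothelial genes at 0.698 and with the heart genes at 0.436 over the 10 arches, and the part of endothelium in the *Edn1* values was not tested.

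*Ednra*, on chromosome 8 from 77663031 to 77724464, encodes the receptor. It was at 40.3, 33.6, 25.4, 33.9 and 34.1 CPM in wild-type and at 28.04, 25.3, 32.5, 34.8 and 26.9 CPM in *Grhl2-/-* arches. The groups overlapped over most of their range. The log2 fold change was -0.16 (95% confidence interval -0.43 to 0.10, limma-voom FDR 0.386).

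*Dlx1* and *Dlx2* lie on chromosome 2, from 71528113 to 71533981 and from 71543408 to 71546754, and are the pair expressed along the whole arch. *Dlx1* was at 82.4, 86.5, 87.8, 70.6 and 86.8 CPM in wild-type and at 74.6, 80.0, 67.9, 73.6 and 87.5 CPM in *Grhl2-/-* arches. *Dlx2* was at 64.7, 73.9, 70.7, 53.2 and 65.6 CPM in wild-type and at 65.4, 58.4, 49.4, 55.4 and 69.1 CPM in *Grhl2-/-* arches. For both genes WT5-566 was the lowest wild-type arch and KO3-604 the highest *Grhl2-/-* arch, and the groups overlapped. Their log2 fold changes in limma-voom were -0.11 (95% confidence interval -0.28 to 0.06, FDR 0.351) and -0.14 (-0.37 to 0.08, FDR 0.379). The log2 ratio of *Dlx2* to *Dlx1* was -0.34 ± 0.07 in wild-type and -0.37 ± 0.11 in *Grhl2-/-* arches (SD, n = 5 each).

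*Dlx3* and *Dlx4* lie on chromosome 11, from 95120119 to 95125296 and from 95140447 to 95146263, and are the most ventrally restricted pair. *Dlx3* was at 47.1, 49.5, 43.3, 32.4 and 40.7 CPM in wild-type and at 40.5, 50.2, 37.6, 41.0 and 50.004 CPM in *Grhl2-/-* arches. Its log2 fold change was 0.05 (95% confidence interval -0.21 to 0.30, limma-voom FDR 0.831), and its sign turned in some of the other fits. *Dlx4* was at 3.36, 3.38, 2.34, 2.07 and 2.06 CPM in wild-type and at 2.82, 3.14, 2.84, 3.59 and 3.24 CPM in *Grhl2-/-* arches, from 51 to 101 reads. WT1-566 and WT1-568, the arches poor in neuron transcripts, lay within the *Grhl2-/-* range of *Dlx4*, and the other 3 wild-type arches lay below it. The log2 fold change of *Dlx4* was 0.28 (-0.08 to 0.64, limma-voom FDR 0.285), and 0.51 without that pair (FDR 0.150).

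*Dlx5* and *Dlx6* lie on chromosome 6, from 6877805 to 6882085 and from 6863334 to 6868568, and are the pair that endothelin signalling sustains in the ventral arch. *Dlx6* was at 41.1, 31.96, 30.5, 28.1 and 29.4 CPM in wild-type and at 22.9, 23.0, 24.8, 19.0 and 27.3 CPM in *Grhl2-/-* arches. The groups did not overlap, with every wild-type arch above every *Grhl2-/-* arch and 27.3 CPM in KO3-604 against 28.1 CPM in WT5-566 as the closest values. *Dlx6* was 1.37-fold lower in *Grhl2-/-* PA1, a log2 fold change of -0.45 (SE 0.112, 95% confidence interval -0.70 to -0.21, limma-voom FDR 0.0344), which missed the threshold of 0.01. *Dlx5* was at 27.7, 24.8, 19.2, 16.9 and 23.0 CPM in wild-type and at 15.5, 19.6, 18.7, 15.5 and 21.0 CPM in *Grhl2-/-* arches. The groups overlapped for *Dlx5*, whose log2 fold change was -0.29 (-0.58 to 0.01, limma-voom FDR 0.192). The log2 ratio of *Dlx6* to *Dlx5* was 0.54 ± 0.17 in wild-type and 0.37 ± 0.13 in *Grhl2-/-* arches (SD, n = 5 each), and the ranges of this ratio overlapped. The whole coding windows shown above for the pair differ in 47 of 180 bases. Exons of *Dlx6* overlap *Dlx6os2* on the opposite strand over 104 bp.

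*Hand1*, on chromosome 11 from 57828705 to 57832818, encodes a bHLH factor of the ventral midline of the arch. It was at 11.4, 15.5, 10.003, 7.78 and 13.01 CPM in wild-type and at 5.31, 6.08, 8.27, 6.83 and 4.67 CPM in *Grhl2-/-* arches. A single overlap kept the groups from separating, since KO2-566, the highest *Grhl2-/-* arch, was above WT5-566, the lowest wild-type arch. *Hand1* was 1.82-fold lower in *Grhl2-/-* PA1, the largest difference among the 10 genes, at a log2 fold change of -0.86 (SE 0.204, 95% confidence interval -1.31 to -0.42, limma-voom FDR 0.0291). Without WT5-566 the log2 fold change was -1.002 and limma-voom FDR was 0.00975, the single fit of the 10 that leave out 1 arch each in which any of the 10 genes passed 0.01.

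*Hand2*, on chromosome 8 from 57320983 to 57324633, encodes the bHLH factor that acts downstream of endothelin 1 to set lower jaw identity. It was at 101.1, 108.6, 85.7, 76.1 and 84.1 CPM in wild-type and at 59.3, 70.2, 77.0, 67.9 and 71.4 CPM in *Grhl2-/-* arches. As for *Hand1*, only KO2-566 and WT5-566 crossed. Levels of *Hand2* were 1.31-fold lower in *Grhl2-/-* PA1 (log2 fold change -0.39, SE 0.0986, 95% confidence interval -0.61 to -0.17, limma-voom FDR 0.0368). The log2 ratio of *Hand1* to *Hand2* was -3.01 ± 0.25 in wild-type and -3.49 ± 0.27 in *Grhl2-/-* arches (SD, n = 5 each), with overlapping ranges. *Hand2os1* overlaps 19.6% of the exon bases of *Hand2* on the opposite strand.

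**Figure D3:**
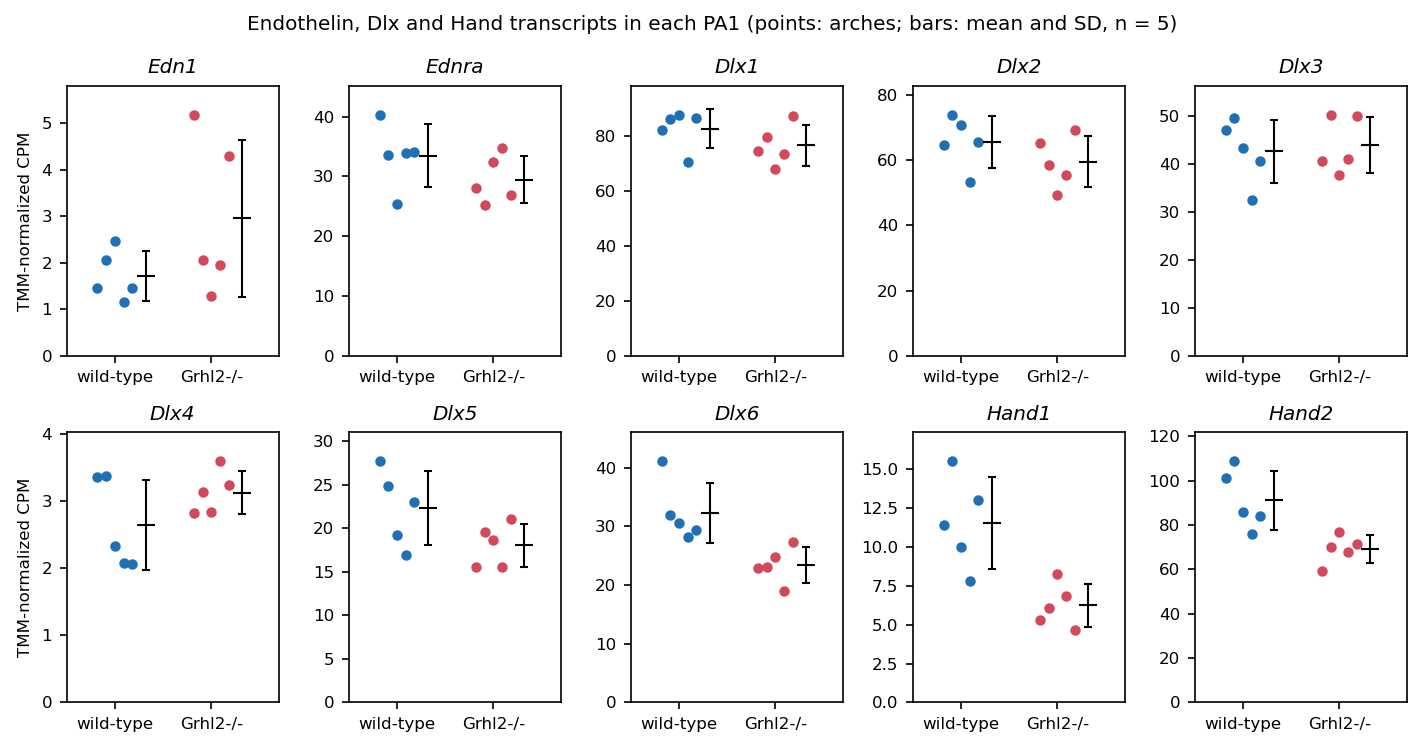
TMM-normalized CPM of each gene in each arch on linear axes from 0, with 1 point per arch (blue wild-type, red Grhl2-/-, left to right in the order of the text) and bars for the mean and SD of 5. The groups separate in Dlx6 alone, and cross at a single pair of arches in Hand1 and Hand2.

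WT1-566 and WT1-568, in which sensory neuron transcripts were scarce, had the highest *Hand2* levels of all 10 arches, and WT1-566 also had the highest *Dlx6*, *Dlx5* and *Ednra* levels. Without both of these arches, which were set aside after seeing the data, *Dlx6* had a log2 fold change of -0.35 (limma-voom FDR 0.132), *Hand1* of -0.71 (FDR 0.134), *Hand2* of -0.26 (FDR 0.154) and *Dlx5* of -0.14 (FDR 0.605). The estimates of the genes further from the threshold were then 0.64 for *Edn1*, -0.08 for *Ednra*, -0.10 for both *Dlx1* and *Dlx2* and 0.16 for *Dlx3* (limma-voom FDR 0.525 to 0.776). With the mean of the sensory neuron genes as a covariate in limma-voom, they were -0.37 for *Dlx6* (FDR 0.134), -0.69 for *Hand1* (FDR 0.103) and -0.27 for *Hand2* (FDR 0.150). The estimates kept their sign, and the 3 genes that passed 0.05 in the fit to all arches no longer did. Ectomesenchyme transcripts were also most abundant in the same pair of arches, at 1553 CPM in WT1-566 and 1491 CPM in WT1-568, against at most 1316 CPM in any other arch. The sum was also lower in every *Grhl2-/-* arch than in every wild-type arch, all 6 genes had a log2 fold change below 0 (median -0.24), and 3 had an unadjusted limma-voom p below 0.05, with *Twist1* alone called, by DESeq2. What share of the *Dlx6* and Hand differences goes with neuron or ectomesenchyme content was not tested beyond these fits. Transcripts of 5 primitive erythroid genes summed to 6162 CPM in WT1-566, the arch with the highest *Dlx6* level, and to between 2855 and 4441 CPM in the others, with a median log2 fold change of -0.33 and 0 of the 5 called by limma-voom, edgeR or DESeq2 (3 had an unadjusted p below 0.05 in each). Within genotypes this list correlated with *Dlx6* at 0.602 and with *Hand1* and *Hand2* at -0.50 and -0.081, and its part in the *Dlx6* values was not tested.

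**Figure D4:**
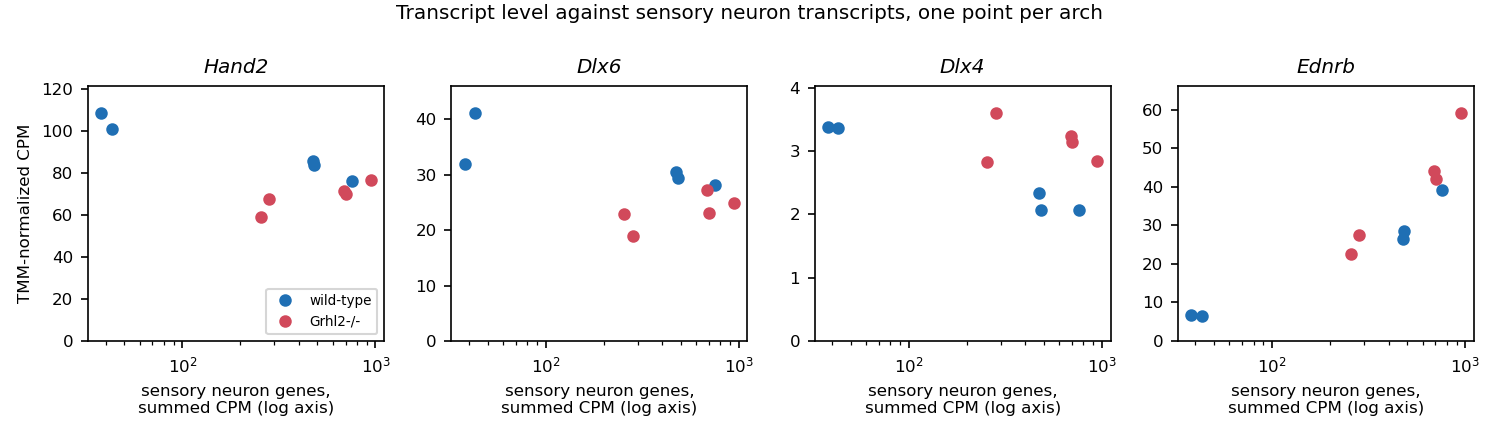
TMM-normalized CPM of Hand2, Dlx6, Dlx4 and Ednrb against the summed CPM of 10 sensory neuron genes (log axis), with 1 point per arch, blue wild-type and red Grhl2-/-. WT1-566 and WT1-568, at 43.1 and 38.1 CPM, sit apart on the left and have the highest Hand2 and the lowest Ednrb levels.

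Within genotypes, several of the genes varied together from arch to arch. Correlations were computed across the 10 arches on the deviations of log2 CPM from the mean of each genotype, and are given as descriptions, since all genes of an arch share its library and its cell composition. The neighbours *Dlx1* and *Dlx2* correlated at 0.877, *Dlx5* and *Dlx6* at 0.789, and *Dlx3* and *Dlx4* at 0.676. *Dlx3* correlated more strongly with *Dlx1* (0.850), *Dlx5* (0.766) and *Dlx2* (0.756) than with its neighbour *Dlx4*. *Hand2* correlated with *Dlx5* at 0.790, with *Dlx4* at 0.759 and with *Hand1* at 0.686. *Hand1* and *Dlx6*, both low in *Grhl2-/-* arches, were uncorrelated at 0.00076 within genotypes. *Edn1* correlated at 0.885 with *Dlx2* and at -0.54 with *Ednra*, and at -0.20 and -0.0015 with *Hand2* and *Dlx5*. *Dlx4* had the strongest relation to the sensory neuron genes, at -0.89, and *Hand2* had -0.62. *Hand2* had stronger relations to 3 other marker lists, namely arch mesoderm and muscle genes at -0.65, the Hox genes of the second and more posterior arches at 0.815, and 4 autonomic neuron genes at 0.785. The Hox list also correlated with *Dlx5* at 0.849, with *Dlx4* at 0.802 and with *Dlx6* at 0.660, although its genes summed to only 0.836 to 2.09 CPM. The autonomic genes summed to between 2.82 and 5.05 CPM in wild-type and between 6.06 and 7.22 CPM in *Grhl2-/-* arches, without overlap. *Th* alone had 3.73 ± 0.996 and 5.02 ± 0.634 CPM (SD, n = 5 each, limma-voom FDR 0.126). Limma-voom called *Phox2a*, a transcription factor of autonomic neurons, higher (FDR 0.00926). Its mean was 0.0538 CPM in wild-type, below the level of 3 reads (0.105 to 0.136 CPM in wild-type arches), and 0.554 CPM in *Grhl2-/-* arches. The list correlations used the mean log2 CPM of the genes, in which scarce genes weigh as much as *Th*. The part of either list in the *Hand2* and Dlx values was not tested.

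Among 10726 genes with a mean of at least 5 CPM, the genes outside the 10 whose deviations over the 10 arches were most like those of *Hand2* were *Notum*, which encodes a secreted Wnt inhibitor, at 0.974, then *Rps6ka6* at 0.949, *Fbxo30* at 0.909, *Mab21l1* at 0.906 and *D17Wsu92e* at 0.902. Those most like *Dlx5* were *Arl4a* at 0.897, *Usp42* at 0.895, *Lef1*, which encodes a nuclear effector of Wnt signalling, at 0.894, *Smoc1* at 0.892 and *Rps6ka6* at 0.881. Those most like *Edn1* were *Nop56*, which encodes a nucleolar protein, at 0.966, *Prdx6* at 0.955, *Ybx1* at 0.952, *Morc4* at 0.942 and *Bms1*, which encodes a ribosome assembly factor, at 0.941. None of these genes differed between genotypes at FDR below 0.01 in limma-voom, with FDR from 0.0470 for *Morc4* upwards; at an FDR of 0.05 *Morc4* alone passed, with a log2 fold change of -0.27.

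To place the 10 genes among the genes around them, 69 of 70 listed genes of arch patterning were tested. Limma-voom called 4 of them lower and 4 higher in the *Grhl2-/-* group at FDR below 0.01, against 1.09% and 0.879% of all genes tested. The number called higher was 1 without KO1-628, KO3-604, WT1-568, WT3-588 or WT8-568 and 2 without KO2-566, KO2-568 or WT1-566, while the number called lower stayed between 3 and 5. *Eya1*, *Lhx6*, *Lhx8* and *Sp8* passed without any 1 of the 10 arches, and of these 4 only *Lhx6* and *Lhx8* passed with the label number as a block (FDR 0.0126 for *Eya1* and 0.0165 for *Sp8*).

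Of 14 other endothelin pathway genes tested (ligands, receptors, converting enzymes, G proteins and MEF2 factors), 0 passed FDR 0.01 in limma-voom or edgeR and *Ece1* alone did in DESeq2, and their median log2 fold change was 0.15. Unadjusted p was below 0.05 for 8 of the 14 in limma-voom, against 28.5% of all genes, and for 7 in edgeR, against 28.9%. With the label number as a block it was below 0.05 for 3 of the 14, against 25.8% of all genes. *Ece1*, the enzyme that cleaves big endothelin to the active peptide, had 139 ± 7.20 CPM in the wild-type and 157 ± 5.10 CPM in the *Grhl2-/-* arches (SD, n = 5 each), with every *Grhl2-/-* arch above every wild-type arch (log2 fold change 0.18, limma-voom FDR 0.0296). *Ednrb*, the endothelin B receptor gene, which neural crest derived glia and melanoblasts express, was at 6.54, 6.69, 26.5, 39.1 and 28.6 CPM in wild-type and at 22.5, 41.9, 59.0, 27.4 and 44.1 CPM in *Grhl2-/-* arches. Its lowest values were in the same pair of wild-type arches that were poor in neuron transcripts, and its log2 fold change of 1.10 did not pass (FDR 0.155). Without that pair the log2 fold change of *Ednrb* was 0.23 (limma-voom FDR 0.704), and with the sensory neuron covariate it was 0.0894 (FDR 0.611). *Edn3*, the ligand of the B receptor, was at 26.0 ± 1.999 and 29.8 ± 2.75 CPM (log2 fold change 0.20, FDR 0.112).

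Of 20 ventral arch genes that lie downstream of endothelin, BMP, DLX5/6 or HAND2, 1 was lower at FDR below 0.01 in limma-voom and 0 were higher, with a median of -0.17. Unadjusted limma-voom p was below 0.05 for 11 of the 20, against 28.5% of all genes. The same gene was called by edgeR, and DESeq2 called 7 lower and 1 higher, against 3.8% and 3.57% of all genes. *Msx1*, a homeobox target of BMP signalling, was at 201.4, 205.3, 142.0, 153.9 and 168.7 CPM in wild-type and at 94.6, 110.4, 129.4, 103.7 and 110.9 CPM in *Grhl2-/-* arches, without overlap. Its log2 fold change was -0.66 (SE 0.111, limma-voom FDR 0.00595), and -0.51 without WT1-566 and WT1-568 (FDR 0.0203). It passed without KO1-588, KO2-566, WT3-588 or WT5-566, and limma-voom FDR was between 0.0139 and 0.0183 without each of the other arches. The largest estimates in the list were those of *Emx2*, at 8.08 ± 2.60 and 4.02 ± 1.39 CPM (log2 fold change -0.99, FDR 0.0431), and *Gbx2*, at 7.37 ± 1.97 and 4.02 ± 1.10 CPM (log2 fold change -0.85, FDR 0.0320; SD, n = 5 each), and neither passed 0.01 in limma-voom or edgeR, while DESeq2 called both (FDR 0.00245 and 0.00167). Without WT1-566 and WT1-568 they were -0.83 for *Emx2* (FDR 0.164) and -0.66 for *Gbx2* (FDR 0.134).

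Of 15 dorsal and maxillary genes, limma-voom called 3 higher and 1 lower, with a median of 0.27, and edgeR 2 higher and 1 lower, without *Jag1*. DESeq2 called 5 higher and 2 lower, against 3.57% and 3.8% of all genes. Unadjusted limma-voom p was below 0.05 for 9 of the 15, against 28.5% of all genes. *Hey1*, a Notch target, had 24.3 ± 2.63 CPM in wild-type and 37.5 ± 4.43 in *Grhl2-/-* arches (log2 fold change 0.62, limma-voom FDR 0.00354). *Jag1*, the Notch ligand of the dorsal arch, had 65.9 ± 9.09 and 91.0 ± 5.83 CPM (log2 fold change 0.47, limma-voom FDR 0.00986), and *Nr2f2*, a nuclear receptor of the maxillary region, 127 ± 5.96 and 158 ± 12.5 CPM (log2 fold change 0.31, limma-voom FDR 0.00917; SD, n = 5 each). *Eya1* fell from 137 ± 7.83 to 110 ± 1.58 CPM (log2 fold change -0.32, limma-voom FDR 0.00113). *Tbx22* had the largest estimate, at -1.59, with 12.1 ± 6.04 and 4.12 ± 2.72 CPM, and did not pass (FDR 0.0582, and 0.189 at an estimate of -1.30 without WT1-566 and WT1-568). Without WT1-566 and WT1-568, the limma-voom FDR was 0.0455 for *Hey1*, 0.0288 for *Jag1* and 0.0629 for *Nr2f2*. Leaving out 1 arch at a time, *Hey1* passed without KO1-588, KO2-566, KO2-568 or WT5-566 (highest FDR otherwise 0.0130), *Jag1* without WT1-566 or WT5-566 (0.0299) and *Nr2f2* without KO1-588 (0.0286). The *Jag1* call was lost in 8 of 11 other settings, edgeR (FDR 0.0103), RLE scaling (0.0103) and each other filter (0.0108 to 0.0114) among them.

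Of 9 genes of the oral-aboral axis, limma-voom and edgeR called 2 lower and 0 higher, with a median of -0.53, and DESeq2 called *Fgf8* lower as well. Unadjusted limma-voom p was below 0.05 for 4 of the 9, against 28.5% of all genes. *Lhx6* and *Lhx8* encode LIM homeodomain factors of the oral side of the arch mesenchyme, which FGF8 from the oral epithelium induces. *Fgf8* itself had 17.1 ± 2.58 CPM in the wild-type and 11.8 ± 2.13 CPM in the *Grhl2-/-* group (SD, n = 5 each; log2 fold change -0.55, limma-voom FDR 0.0422), and the groups overlapped. *Lhx6* was at 109, 89.1, 60.4, 79.9 and 77.6 CPM in wild-type and at 27.5, 32.2, 38.1, 35.3 and 34.3 CPM in *Grhl2-/-* arches (log2 fold change -1.29, limma-voom FDR 3.85e-04). *Lhx8* was at 124, 112, 91.6, 97.2 and 102 CPM in wild-type and at 45.4, 50.2, 50.5, 53.6 and 54.6 CPM in *Grhl2-/-* arches (log2 fold change -1.04, limma-voom FDR 2.66e-05). Both separated the groups by a wide margin and passed the threshold without WT1-566 and WT1-568 as well (FDR 8.36e-04 and 5.93e-05), with estimates larger than that of any of the 10 genes. *Osr2*, of the same list, was at 1.63 ± 0.914 and 0.744 ± 0.546 CPM (log2 fold change -1.14, FDR 0.153).

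Of 11 partners and regulators of HAND and DLX proteins, limma-voom and edgeR called 1 higher (*Sp8*) and 0 lower, with a median of -0.06. DESeq2 called 2 higher (*Sp8* and *Id3*) and 2 lower (*Tcf12* and *Twist1*), against 3.57% and 3.8% of all genes. Unadjusted limma-voom p was below 0.05 for 5 of the 11, against 28.5% of all genes. *Sp8*, a zinc finger factor of ectoderm and anterior neural tissue, was at 1.91, 3.56, 2.65, 1.999 and 2.46 CPM in wild-type and at 9.31, 8.64, 8.45, 5.44 and 9.23 CPM in *Grhl2-/-* arches (log2 fold change 1.69, limma-voom FDR 9.43e-04). Ventral forebrain transcripts summed to between 0.863 and 1.34 CPM in wild-type and between 1.53 and 3.75 CPM in *Grhl2-/-* arches, and their part in the *Sp8* values was not tested. *Twist1*, a dimer partner of HAND proteins, was at 188 ± 22.7 and 148 ± 6.75 CPM, without overlap (log2 fold change -0.34, limma-voom FDR 0.0189).

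**Figure D5:**
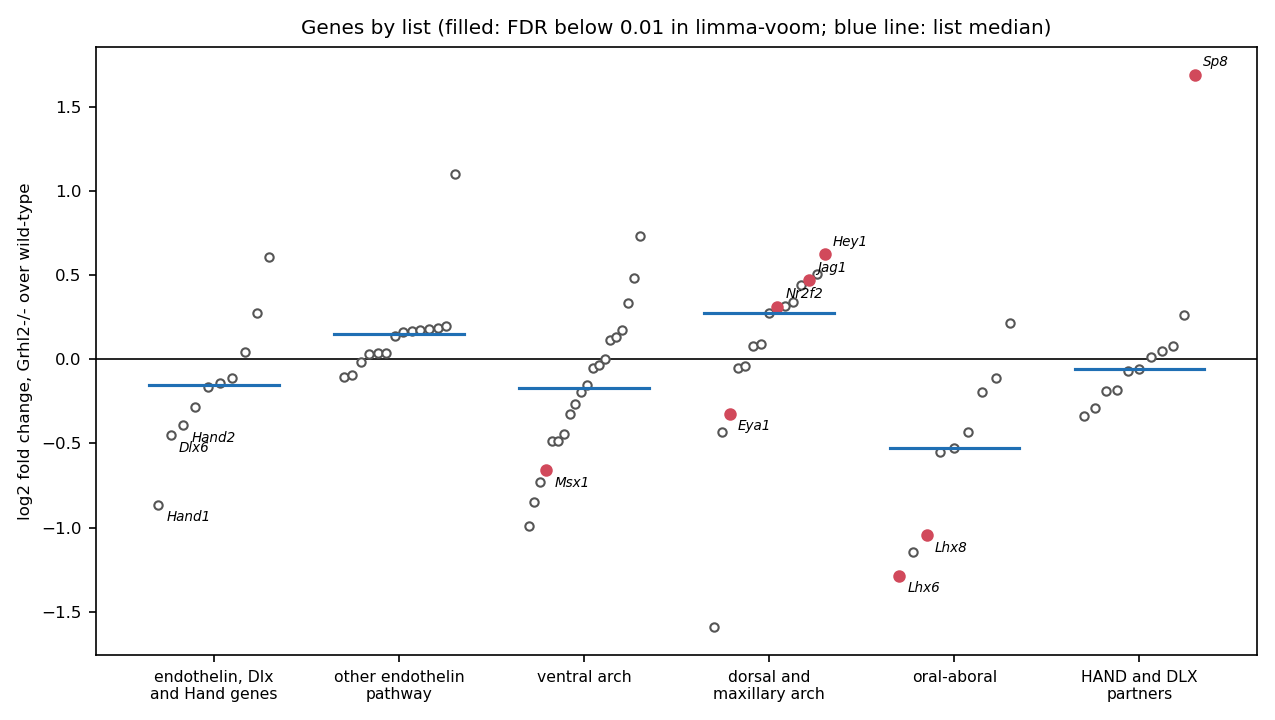
Log2 fold change of Grhl2-/- over wild-type PA1 for each tested gene of the 10 and of 5 lists of arch patterning genes, with 1 point per gene, filled where limma-voom FDR was below 0.01, and a blue line at each median. The medians run from -0.53 (oral-aboral) to 0.27 (dorsal and maxillary), and none of the 10 endothelin, Dlx and Hand genes is filled.

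Promoter sequence was at hand for 5 of the 10 genes (*Edn1*, *Ednra*, *Dlx1*, *Dlx2* and *Hand2*), as the 250 bases before the start site in RefSeq on GRCm38.p6. *Hand2* and *Dlx2* are shown because each holds more than 1 match to the E-box CANNTG, and because *Hand2* was 1 of the 3 genes that passed a limma-voom FDR of 0.05. CANNTG is the general form of the sites of bHLH factors and does not tell one such factor from another. Both *Dlx2* matches read CACGTG, and those of *Hand2* read CATCTG and CACTTG. Capitals mark the CANNTG matches. The *Hand2* sequence is chr8:57320733-57320982 (plus strand) and the *Dlx2* sequence is chr2:71546755-71547004 (minus strand).

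Hand2: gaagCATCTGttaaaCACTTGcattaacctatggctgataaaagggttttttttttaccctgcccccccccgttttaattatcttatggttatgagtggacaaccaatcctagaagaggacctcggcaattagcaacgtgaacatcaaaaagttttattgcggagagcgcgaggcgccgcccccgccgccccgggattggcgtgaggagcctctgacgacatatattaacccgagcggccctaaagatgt

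Dlx2: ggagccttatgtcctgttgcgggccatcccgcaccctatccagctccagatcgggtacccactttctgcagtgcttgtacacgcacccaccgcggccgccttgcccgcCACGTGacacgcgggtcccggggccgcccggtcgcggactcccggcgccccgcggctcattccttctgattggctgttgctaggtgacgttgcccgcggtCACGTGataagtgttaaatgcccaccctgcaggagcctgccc

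CANNTG, which reads alike on both strands, was found in 66.2% of 32851 RefSeq promoters of this length. It lay in *Hand2* at -246 and -235, in *Dlx2* at -142 and -42 and in *Ednra* at -214, counted from the start site, and was not found in *Edn1* or *Dlx1*. CATCTG, searched on both strands and a special case of CANNTG, was found in 14.4% of promoters and in *Hand2* at -246. TAATTA, the core that DLX homeodomains bind, was found in 4.84% of promoters and in *Hand2* at -175. AACCGGTT, the letters of the GRHL recognition site, was found in 0.116% of promoters and in none of the 5, and AACCNGTT, which includes it and was searched on both strands, in 1.79% and in none of the 5.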

How the data were processed

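The authors isolated total RNA from whole PA1, made stranded libraries depleted of ribosomal RNA and read them as 50-base single-end reads over 3 lanes. They aligned reads to GRCm38 with STAR and counted them with featureCounts, and deposited raw counts per protein-coding gene. Versions and annotation release are not given in the sources used here. A second deposited table, with the authors' own fold changes and FDR, was not used.

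The 10 genes and all lists were chosen with earlier results of these data known. The 14561 genes that reached 10 counts in 1 arch or more were kept. Counts were normalized by TMM (edgeR 4.0.16) and tested with limma-voom (limma 3.58.1, R 4.3.3) with genotype as the only term, and FDR is Benjamini-Hochberg adjusted over all genes tested; the call threshold was FDR below 0.01. Log2 CPM used a prior count of 0.5. Exon lengths, positions and overlaps are from GENCODE M21 on GRCm38, and promoters from RefSeq. Named genes are the 10, *Grhl2*, listed genes below FDR 0.01, the 2 largest estimates per list with a mean of at least 1 CPM, and the 5 nearest in pattern to *Edn1*, *Dlx5* and *Hand2*. *Ece1*, *Plcb4* and the markers were named after their values were seen. Alternatives were edgeR, DESeq2 1.42.0, other scalings and filters, quality weights, the label number as a block, a sensory neuron covariate, and leaving out each arch; the fit without WT1-566 and WT1-568 was added after seeing the data. The methods were tested on simulated data. Total counts of at least 22188454 limit the precision of genes with few reads (*Edn1* and *Dlx4*). Each library is a separate embryo; within-genotype pairs differed by more than sampling noise (chi-square per gene 7.29 to 26.4 over 20 pairs).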

Additional observations from a re-analysis of the deposited data

Results flagged for a closer look

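Of 52 groups of 5 arches (26 named genes in each genotype), 1 held an arch whose gap to the nearest other arch, as a share of the range of the group, was above Dixon's critical value of 0.71, and chance gives about 2.6. It was *Sp8* in *Grhl2-/-* PA1, where KO2-568 had the lowest level, 2.45 log2 CPM, below 3.08 log2 CPM in the nearest arch (a share of 0.818). KO2-568 was still above every wild-type arch for *Sp8*. None of the 10 endothelin, Dlx and Hand genes had such an arch in either genotype.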

How the results depend on the processing

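*Edn1*, *Ednra*, *Dlx1*, *Dlx2*, *Dlx4*, *Dlx5*, *Dlx6*, *Hand1* and *Hand2* kept the sign of their log2 fold change in every alternative fit and without each arch in turn, and *Dlx3* turned to -0.0897 with the label number as a replicate block, to -0.00850 without KO1-628, to -0.0117 without KO3-604 and to -0.0511 without WT5-566 (limma-voom FDR 0.663 to 0.977). Over the fits that leave out 1 arch, the log2 fold change ran from 0.34 to 0.87 for *Edn1*, -0.27 to -0.10 for *Ednra*, -0.17 to -0.07 for *Dlx1*, -0.22 to -0.08 for *Dlx2*, -0.05 to 0.11 for *Dlx3*, 0.20 to 0.38 for *Dlx4*, -0.38 to -0.21 for *Dlx5*, -0.51 to -0.37 for *Dlx6*, -1.002 to -0.74 for *Hand1* and -0.45 to -0.32 for *Hand2*. In them the number of the 10 genes called ran from 0 to 1, all genes called from 152 to 385 (152 to 176 without KO1-628, KO3-604, WT1-566, WT1-568, WT3-588 or WT8-568), listed genes called lower from 3 to 5 and called higher from 1 to 4. DESeq2 took *Dlx6* (-0.46), *Hand1* (-0.89) and *Hand2* (-0.40) past 0.01, so that 3 of the 10, 1073 of all genes and 14 lower and 9 higher listed genes were called. An FDR of 0.05 gave 3, 1123, 12 and 10. All genes called numbered 129 with the replicate block, 145 with the sensory neuron covariate and 109 without WT1-566 and WT1-568, and listed genes called higher numbered 1 in each of these 3 fits. The cause was not tested, except that the last uses fewer samples, and that KO1-628 and KO3-604, whose numbers no wild-type arch has, add nothing to the genotype contrast with the block.

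The labels do not say what the numbers shared by arches stand for, and the arches showed no consistent pairing by number. Same-numbered arches of opposite genotype correlated in their deviations at 0.0881 on average over 5 pairs (-0.364 to 0.540), the other 20 pairs at -0.0191, and 1 of 5 wild-type arches correlated best with its own number. With the replicate block 0 of the 10 genes passed a limma-voom FDR of 0.05 (4.59% of all genes did) and 5 had an unadjusted p below 0.05 (25.8%). The block gave log2 fold changes of -0.51 for *Dlx6* (FDR 0.0706), -0.72 for *Hand1* (FDR 0.0928) and -0.39 for *Hand2* (FDR 0.113). Among the listed genes, *Lhx6* and *Lhx8* passed 0.01 with the block as well, whereas limma-voom FDR rose to 0.0126 for *Eya1*, 0.0165 for *Sp8*, 0.0317 for *Msx1*, 0.0168 for *Hey1*, 0.0744 for *Jag1* and 0.0167 for *Nr2f2*. Of the marker genes called by limma-voom, *Perp* and *Phox2a* were not called with the block, and *Cdh1*, *Epcam* and *Tfap2c* were.

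Other scalings moved the median of all genes from 0.01 to at most 0.03. Counting error weighs most on *Edn1* and *Dlx4*, at 32 to 145 and 51 to 101 reads per arch. Their spread between arches differed, with coefficients of variation of 30.9% in wild-type and 57.0% in *Grhl2-/-* arches for *Edn1*. For *Dlx4* these were 25.5% and 10.2%.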
